A study of Oryctolagus cuniculus with 3 samples.

Results

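The nuclear-encoded subunits of the mitochondrial respiratory chain were described in cumulus-oocyte complexes, the oocyte together with the somatic cumulus cells around it, from female rabbits (Oryctolagus cuniculus). The genes were taken by name, as every row of the gene table whose symbol begins with NDUFA, NDUFB, NDUFC, NDUFS, NDUFV, UQCR, COX4 to COX8 or ATP5, or is SDHA, SDHB, SDHC or SDHD. The names matched 70 of 39681 rows, under 62 distinct symbols. Of these rows 62 had a RefSeq transcript, and the other 8 were assembled rows without one that carry the name of a subunit or an assembly factor.

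The respiratory chain passes electrons from NADH and succinate to oxygen across the inner mitochondrial membrane and pumps protons as it does so. Complex I takes electrons from NADH, complex II takes them from succinate, complex III hands them to cytochrome c, complex IV reduces oxygen, and complex V is the ATP synthase driven by the proton gradient. A few subunits of complexes I, III, IV and V are made from mitochondrial DNA, and all others, which are the genes described here, come from the nucleus. The growing oocyte depends on this chain, because it oxidises pyruvate that its cumulus cells supply. The roles given below are those known from human and mouse genes.

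The libraries were labelled CG (rabbits kept in a control room under 3 ppm ammonia), LAC (10 ppm) and HAC (30 ppm), with 1 library each. All animals were females of the strain the labels call IRA, 35 days old when the exposure of 4 weeks began. The study divided 150 rabbits between these rooms, and the sources used here do not say how many gave RNA to a library. Gene values were compared between LAC and CG only, since the gene tables deposited for LAC and HAC were equal in all 39681 rows, both headed LAC. Gene counts and the transcript values headed LAC come from the same library: counts computed from the transcript coverage headed LAC were within 5% of the gene counts at 97.2% of 8638 loci, and those from the coverage headed HAC at 4.12% of 8795. The heading of this library has 1 mark against it, since the largest FPKM of the shared table, 39492, is the one stated in the statistics for HAC, where 86394 is stated for LAC. Every statement on LAC rests on the heading. With 1 library in a group no difference has a replicate check, and no p-value or standard error was computed.

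The estimated counts summed to 68523767 in LAC and 78461882 in CG, and a count stands for about 0.5 reads. The mapping statistics gave 16.23% spliced reads in LAC and 22.01% in CG, and 34.2% of the counts in LAC and 24.6% in CG fell in rows without a RefSeq messenger RNA. Oocyte markers stood apart: all 17 with enough counts were lower in LAC, with a median difference of -2.05, and their counts scaled to library size (CPM) summed to 988 CPM in LAC and 4942 CPM in CG. None of the 10 granulosa and cumulus markers passed the size rule (a log2 difference of 1 or more with enough counts). These summed to 14343 CPM in LAC and 13980 CPM in CG, with 7 above 0 and 3 below. The sum includes 2 rows shared with another gene, INHA with OBSL1 (3001 CPM in LAC and 2602 CPM in CG) and HSD17B1 with ATP6V0A1 (550 CPM in LAC and 318 CPM in CG). The direction of so small a difference in the sum can therefore not be given to the markers. Markers of theca and stroma summed to 121 CPM in LAC and 92.1 CPM in CG, and 3 of 7 (DCN, COL1A1 and COL3A1) passed the size rule upwards. STAR alone of these was below 0, with 48.7 CPM in LAC and 68.0 CPM in CG. Markers of smooth muscle and pericytes summed to 93.1 CPM in LAC and 81.5 CPM in CG, and 3 of 8 (DES, LMOD1 and PDGFRB) passed upwards. Another 3 (MYH11, RGS5 and NOTCH3) were below 0, and MYH11 had 36.3 CPM in LAC and 47.2 CPM in CG. Macrophage markers summed to 28.3 CPM in LAC and 56.3 CPM in CG, a lower sum carried by MSR1 alone (8.20 CPM in LAC and 47.3 CPM in CG), while 5 of 6 were above 0 and MRC1 passed upwards. Endothelial markers summed to 8.08 CPM in LAC and 49.0 CPM in CG, again through a single gene, TEK (4.23 CPM in LAC and 46.7 CPM in CG), with 4 of 6 above 0. The muscle markers ACTA1, ACTC1 and TNNT2 and the adipocyte markers ADIPOQ, FABP4 and LEP were at 0 in both libraries. Muscle markers summed to 17.1 CPM in LAC and 23.7 CPM in CG, most of it from MYH6 (15.7 CPM in LAC and 20.1 CPM in CG). Of 3 with enough counts 1 was above 0, and CKM, with 60 counts in LAC and 245 in CG, passed the size rule downwards. Among the adipocyte markers CIDEC had 32 counts in LAC and 26 in CG, and UCP1 had 11 in LAC and 0 in CG. In such bulk RNA, fewer cells of a type and less RNA per cell cannot be told apart, and the part of the markers' differences in the results below was not tested.

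Differences were computed as LAC minus CG on the log2(CPM + 1) scale, and the size rule asked for a difference of 1 or more together with 10 or more counts in the higher of both libraries. Among the 70 rows 0 passed it upwards in LAC and 1 downwards, NDUFAF7, whereas 1.89% of 15009 coding genes passed upwards and 11% downwards. At a smaller difference of 0.5, 4 rows were higher in LAC and 8 lower, against 7.81% and 25.4% of the coding genes. The 8 assembled rows, a kind that the coding genes do not include, held 2 of those higher and 2 of those lower. The 62 rows with a RefSeq transcript held 2 higher and 6 lower. The 70 rows had a median difference of -0.06, with 31 above 0 and 39 below, and the coding genes had a median of -0.14 with an interquartile range of -0.51 to 0.16. Together the rows held 0.374% of the counts in LAC and 0.413% in CG. Their CPM summed to 3772 in LAC and 4089 in CG, 7.75% lower in LAC. The set thus lay near the middle of the coding genes, with a count of large differences downwards below their percentage and a count upwards close to it. Small differences depend on the scaling: with factors computed on coding genes alone, log2 values move upwards by 0.18, and 26 of the 70 rows are below 0 in place of 39.

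**Figure D1:**
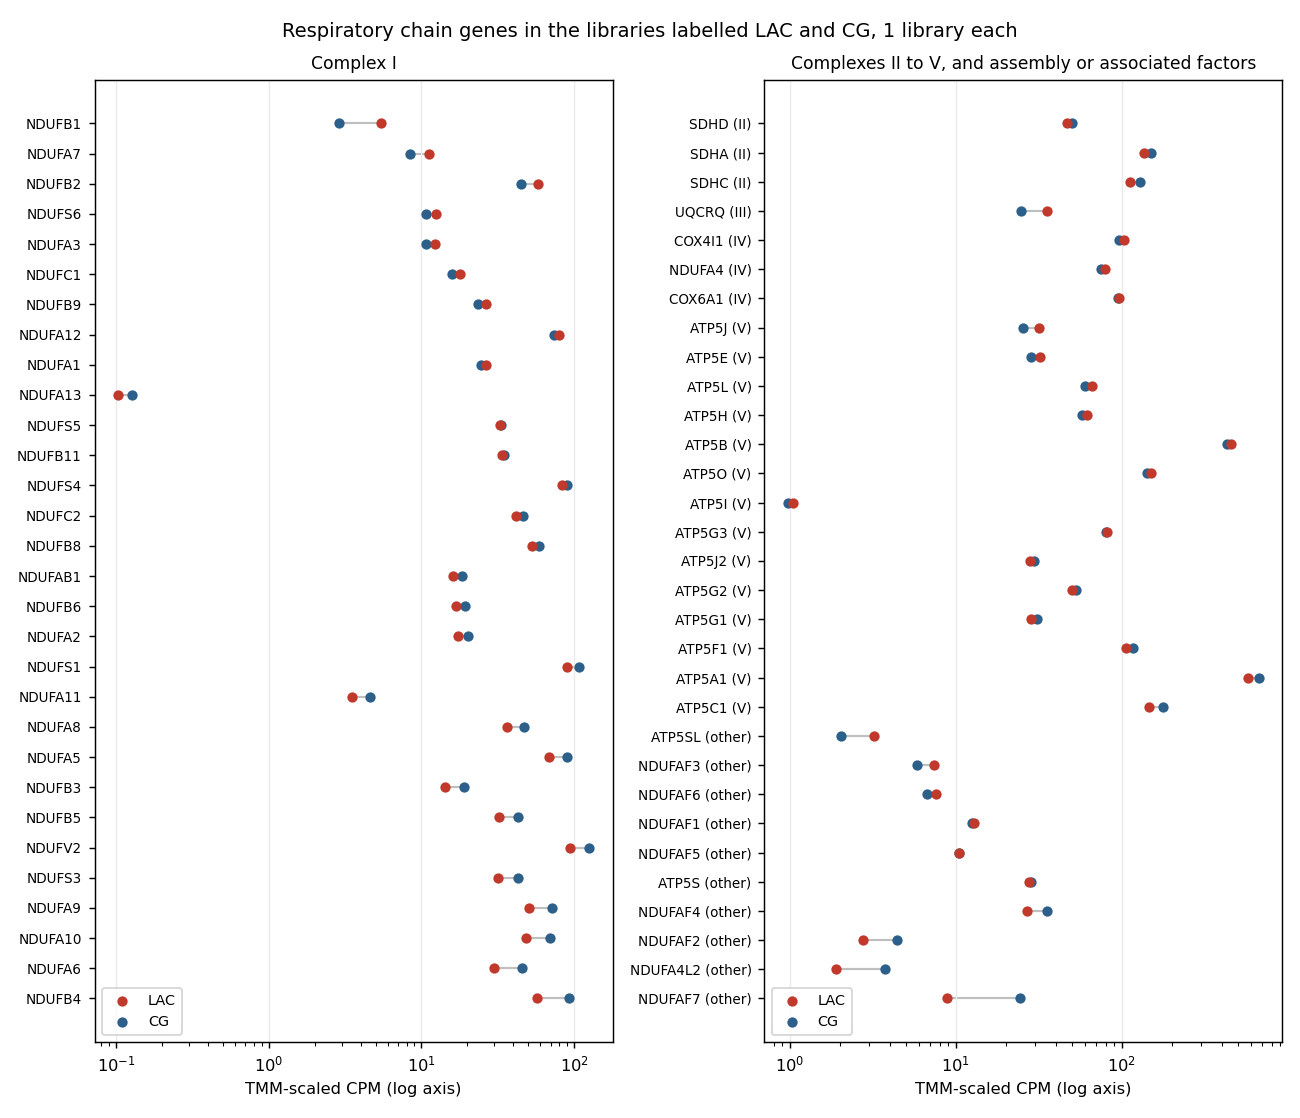
Level of genes with a RefSeq transcript in LAC (red) and CG (blue), 1 library each, in CPM on a log axis, with complex I on the left and the other complexes and factors on the right. Genes are ordered within a complex by their difference. Most pairs lie close together, LAC is left of CG for most complex I rows, and NDUFAF7 has the widest gap, at 8.89 CPM in LAC and 24.2 CPM in CG.

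Complex I, the NADH dehydrogenase, had most of its subunits lower in LAC by a small amount. Of 31 subunit rows 22 were below 0 and 9 above, with a median of -0.15, and 0 passed the size rule, though on coding-gene scaling 16 were below 0 and 15 above. Their CPM summed to 1218 in LAC and 1419 in CG, 14.1% lower in LAC. Against counting error alone, the LAC to CG ratio had a 95% interval below 1 for 19 of the 31 and above 1 for 8. The same count over all coding genes is not given here, and 38.1% of the coding genes were above 0. The median was next to that of all coding genes, and 16 of the 31 lay below the coding median. Oocyte markers, given above, were lower in the same library.

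The core subunits of complex I carry the path of the electrons, and the 3 described here were lower in LAC under each of the 5 scalings tried. NDUFV2, an iron-sulfur subunit of the NADH-binding module, had 93.8 CPM in LAC and 125 CPM in CG, a difference of -0.41. NDUFS1, the largest iron-sulfur subunit, had 89.98 CPM in LAC and 108 CPM in CG. NDUFS3, in the arm that leads to ubiquinone, had 31.5 CPM in LAC and 42.6 CPM in CG, a difference of -0.43. An assembled fragment that carries the name NDUFS1 went the other way, with 7.70 CPM in LAC and 4.96 CPM in CG. NDUFS7, NDUFS8 and NDUFV1 were not matched by name and were not analysed here.

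A further 27 rows are accessory subunits, which surround the core and are needed to build and hold the enzyme. Their median was -0.13, with 18 below 0 and 9 above. The largest difference downwards was that of NDUFB4, a membrane-arm subunit, with 57.2 CPM in LAC and 92.3 CPM in CG, or -0.68. Next was NDUFA6, a member of the LYR-motif family, with 29.9 CPM in LAC and 45.8 CPM in CG, or -0.60. Neither reached the size rule, although their counting intervals lay wholly below 1, at 0.59 to 0.65 times for NDUFB4 and 0.60 to 0.71 times for NDUFA6. NDUFA10 had 48.6 CPM in LAC and 69.2 CPM in CG, and NDUFA9, a subunit at the joint of the arms, had 50.5 CPM in LAC and 71.7 CPM in CG. These 4 genes with NDUFV2 and NDUFS3 were the lowest of complex I in LAC relative to CG.

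A smaller number of accessory subunits were higher in LAC. NDUFB2 had 58.2 CPM in LAC and 45.1 CPM in CG, a difference of 0.36, and NDUFA7 had 11.2 CPM in LAC and 8.44 CPM in CG, a difference of 0.37. Of the 62 genes 6 overlap a coding row on the other strand, and NDUFB2 overlaps BRAF in this way over 9350 bases, and BRAF had 70.4 CPM in LAC and 68.4 CPM in CG. The sources used here do not say whether counting kept the strands apart. A form of NDUFB2 classed as long non-coding took 64.3% of the row's count in LAC and 88.1% in CG, which left 20.8 CPM in LAC and 5.38 CPM in CG for its other forms. The row named NDUFB1 had the largest difference upwards, 0.73, with 5.43 CPM in LAC and 2.88 CPM in CG, but the RefSeq table gives the same symbol to another row, whose values were 24.8 CPM in LAC and 24.4 CPM in CG. NDUFB1 is thus not one clear value in these data. The row named NDUFA13 had only 7 counts in LAC and 10 in CG. The RefSeq table gives this symbol to 2 assembled rows, with 26.8 and 26.1 CPM in LAC and 19.3 and 11.1 CPM in CG. These 2 rows overlap on opposite strands of NC_013685.1, the first on the minus strand (22131772 to 22137744) and the second on the plus strand (22134671 to 22141757). At most 1 of them can thus run along the gene's own strand.

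By family the NDUFA subunits had a median of -0.19 over 13 rows, the NDUFB subunits -0.15 over 9 and the NDUFS subunits -0.09 over 6. NDUFC1 and NDUFC2, at 17.9 and 41.8 CPM in LAC and 15.9 and 46.0 CPM in CG, lay on either side of 0. Within complex I the range ran from -0.68 to 0.73, wider than any gap between these families.

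**Figure D2:**
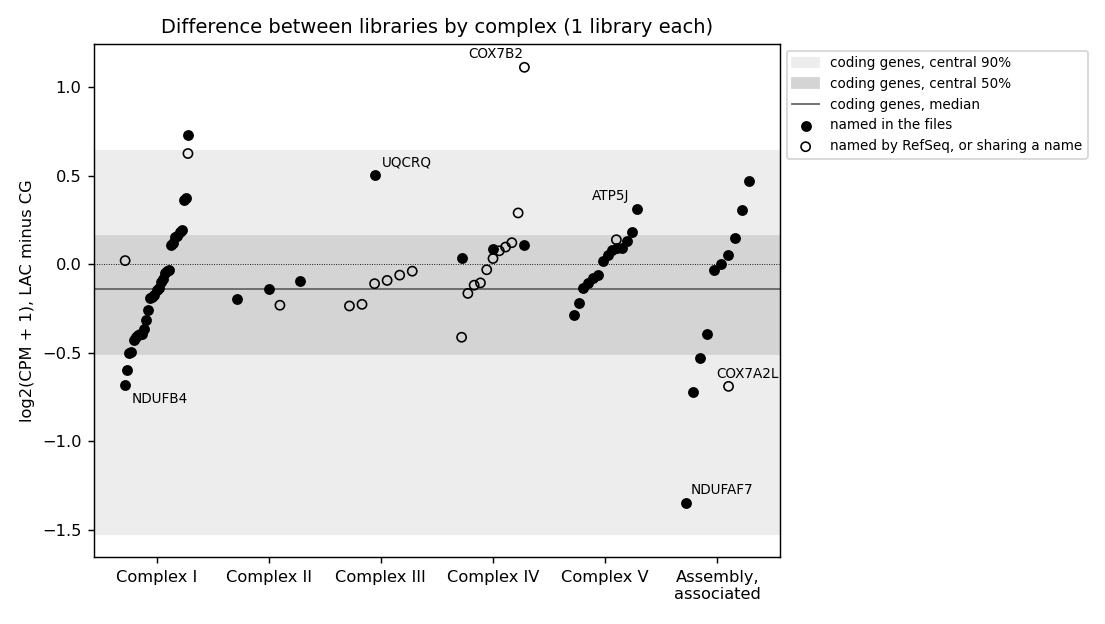
Difference between LAC and CG, 1 library each, on the log2(CPM + 1) scale for each gene with at least 10 counts in the higher library, by complex. Filled points are rows named in the files and open points are rows named by the RefSeq table or sharing a name, and the grey bands and line give the coding genes. The complex I points reach down to -0.68 for NDUFB4, complex V points stay between -0.29 and 0.31, and NDUFAF7 lies lowest at -1.35.

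Complex II, succinate dehydrogenase, belongs to both the respiratory chain and the TCA cycle and is made from nuclear genes alone. SDHA, the flavoprotein that oxidises succinate, had 136 CPM in LAC and 150 CPM in CG, a difference of -0.14. The iron-sulfur subunit SDHB stands in a row that shares its name with a second locus and that the name pattern leaves out, with 62.8 CPM in LAC and 74.0 CPM in CG, a difference of -0.23. The membrane anchor SDHC had 112 CPM in LAC and 129 CPM in CG, and the other anchor, SDHD, had 46.6 CPM in LAC and 49.9 CPM in CG. All 4 were slightly lower in LAC, between -0.10 and -0.23 on the log2 scale, but 2 of them had the other sign on coding-gene scaling, and 0 passed the size rule. A further 7 rows are described as the same protein as SDHD, 4 of them with enough counts, and with these added SDHD differed by -0.07.

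Complex III, the cytochrome bc1 complex, was represented by name through UQCRQ alone, a small subunit of its membrane part. UQCRQ had 35.3 CPM in LAC and 24.6 CPM in CG, a difference of 0.50, with a counting interval of 1.32 to 1.56 times. The RefSeq table names 6 further subunits that the files list by a LOC number, and all 6 were on the other side of 0, so that the 7 together had a median of -0.09 (0.08 on coding-gene scaling, with 2 of the 7 below 0). Among them UQCRFS1, the Rieske iron-sulfur protein, had 131 CPM in LAC and 153 CPM in CG, and UQCRB had 17.2 CPM in LAC and 20.4 CPM in CG. The core proteins UQCRC1 and UQCRC2 had 54.02 and 148 CPM in LAC and 58.4 and 152 CPM in CG. UQCRQ had the highest difference of its complex under each of the 5 scalings tried.

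Complex IV, cytochrome c oxidase, differed little. COX4I1, the ubiquitous form of subunit 4, had 103 CPM in LAC and 95.7 CPM in CG. COX6A1, the form of subunit 6A found in most tissues, had 96.5 CPM in LAC and 94.3 CPM in CG. NDUFA4, named for complex I but now counted with complex IV, had 79.6 CPM in LAC and 74.96 CPM in CG. These 3 named rows had a median of 0.09, and the 14 rows that include subunits named through RefSeq had a median of 0.05, 9 above 0 and 5 below (13 and 1 on coding-gene scaling). COX5A and COX5B, which sit beside the catalytic core, had 46.6 and 62.8 CPM in LAC and 42.7 and 51.2 CPM in CG, while COX6C was lowest, with 32.2 CPM in LAC and 43.2 CPM in CG.

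The tissue forms of complex IV ranged widely in the number of counts behind them. COX7A2 had 91.6 CPM in LAC and 98.6 CPM in CG, and COX8A had 12.7 CPM in LAC and 13.9 CPM in CG. COX4I2, the form known from lung, had 1.56 CPM in LAC and 1.62 CPM in CG, and COX7A1, a heart and muscle form, had 0.52 CPM in LAC and 0.42 CPM in CG, too few counts to show a small difference (interval 0.63 to 2.75 times). The row of COX6A2, another muscle form, was at 0 in both libraries, which allows up to 3 reads, or 6 counts, in each. COX7B2, a paralog of the subunit gene COX7B, had 79 counts in LAC and 0 in CG. The value in LAC was 15.4-fold that of a floor of 3 reads, or 6 counts, in CG. With the counting error of both libraries, the interval of the ratio of LAC to CG began at 12.1 times. COX7B2 was 1 of 2 rows that passed the size rule upwards among the 27 named by the RefSeq table alone, where 1.89% of coding genes did. The other was the plus-strand row of the 2 overlapping assembled rows given the symbol NDUFA13, with 26.1 CPM in LAC and 11.1 CPM in CG. Neither gene is in the rule for named genes, and both were picked after their values were seen.

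Complex V, the ATP synthase, was the most even of the larger complexes. Its 14 rows ranged from -0.29 to 0.31 with a median of 0.04, 8 above 0 and 6 below (12 above and 2 below on coding-gene scaling). They summed to 1811 CPM in LAC and 1897 CPM in CG, a sum 4.56% lower in LAC. A counting interval lay above 1 for 6 rows and below 1 for 3, again without the same count over the coding genes. Only 2 of the 14 lay below the median of the coding genes.

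The catalytic head of complex V held both directions. ATP5A1, the alpha subunit, had 575 CPM in LAC and 669 CPM in CG, a difference of -0.22. ATP5B, the beta subunit that carries the catalytic sites, had 455 CPM in LAC and 427 CPM in CG, a difference of 0.09. ATP5C1, the gamma subunit of the rotor, had the largest difference downwards, with 145 CPM in LAC and 177 CPM in CG, or -0.29. ATP5E, the epsilon subunit, had 32.3 CPM in LAC and 28.4 CPM in CG, a difference of 0.18. Subunits of the same head thus lay on both sides of 0 by small amounts, and each of these 4 counting intervals excluded 1.

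The c-ring turns in the membrane as protons pass, and its protein comes from a family of genes with different leader sequences. ATP5G1 had 28.5 CPM in LAC and 30.8 CPM in CG, ATP5G2 had 50.3 CPM in LAC and 53.0 CPM in CG, and ATP5G3 had 81.8 CPM in LAC and 80.7 CPM in CG. The counting intervals of all 3 included 1. Forms of ATP5G2 classed as long non-coding left 12.8 CPM in LAC and 15.0 CPM in CG for its other forms. In the peripheral stalk, which holds the head still, ATP5J (factor 6) had the largest difference upwards of complex V, with 31.6 CPM in LAC and 25.3 CPM in CG, or 0.31. ATP5O, ATP5H and ATP5F1 of the stalk differed by 0.08, 0.09 and -0.13. ATP5J overlaps GABPA on the other strand over 190 bases, and GABPA, a subunit of a transcription factor that acts on many respiratory genes, had 93.2 CPM in LAC and 79.0 CPM in CG.

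Complexes I and V differed from each other in these 2 libraries by a median of -0.18. Of the 31 complex I rows 22 lay below the median of complex V, and 11 lay below its lowest row. This is a description of 2 libraries, with no test. It varied little with the scaling, which moves both complexes by nearly the same amount. Under 4 other scalings it was between -0.19 and -0.17, but it was -0.12 with the assembled rows added to the complexes. The direction against 0 did depend on the scaling. Scaled on coding genes alone, complex I had a median of -0.01, complex V of 0.17, and all 70 rows of 0.10, where the coding genes had a median of 0.00. With the deposited FPKM values complex V had a median of -0.01.

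**Figure D3:**
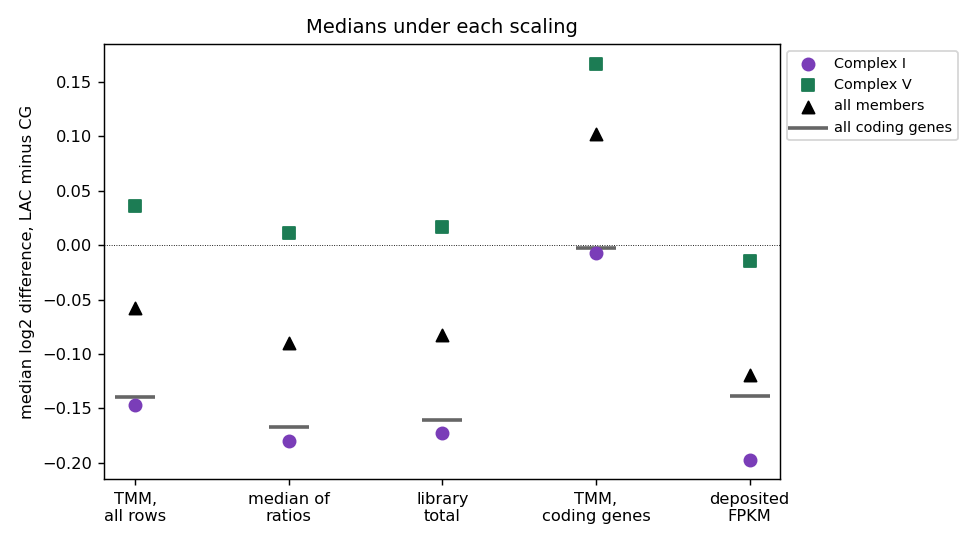
Median difference between LAC and CG, 1 library each, of complex I (circles), complex V (squares), all 70 rows (triangles) and the coding genes (bars) under 5 ways to scale the libraries. Complex V is above complex I under each of them, while the position of both against 0 moves, from -0.15 for complex I and 0.04 for complex V under the first scaling to -0.01 and 0.17 under scaling on coding genes.

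The assembly factors and associated proteins were set apart from the subunits, and among them was the single gene past the size rule. NDUFAF7, a methyltransferase that acts while complex I is built, had 604 counts or 8.89 CPM in LAC and 1916 counts or 24.2 CPM in CG. It was 2.72-fold lower in LAC (counting interval 2.39 to 3.11), a difference of -1.35. A row described as the same protein had 2.36 CPM in LAC and 2.35 CPM in CG, and the sum of both rows differed by -1.17. No other NDUFAF gene was near this size. NDUFAF2 had 2.77 CPM in LAC and 4.45 CPM in CG, NDUFAF4 had 26.7 CPM in LAC and 35.4 CPM in CG, and NDUFAF3 had 7.41 CPM in LAC and 5.81 CPM in CG. NDUFAF1, NDUFAF5 and NDUFAF6 differed by 0.05, 0.00 and 0.15.

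The associated proteins lay on both sides of 0. NDUFA4L2, a paralog of NDUFA4 known as a target of hypoxia signalling, had 1.88 CPM in LAC and 3.76 CPM in CG, a difference of -0.72. ATP5SL had 3.22 CPM in LAC and 2.05 CPM in CG, and ATP5S had 27.7 CPM in LAC and 28.3 CPM in CG. COX7A2L, which links complexes III and IV into supercomplexes and which the RefSeq table names, had 93.9 CPM in LAC and 152 CPM in CG. Its difference of -0.69 was close to that of NDUFB4 and below that of any complex IV subunit measured.

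Many of these genes share their protein description with other rows, and reads of near-identical copies can be exchanged in counting. For 26 of the 62 genes, 64 other rows are described as the same protein. Of these copies 30 were at 0 in both libraries and 29 had enough counts, 0 passing the size rule upwards and 2 downwards. Of the coding genes 1.89% passed upwards and 11% downwards, so the copies do not stand out by this count. A copy of ATP5F1 (LOC100354074) had 85 counts in LAC and 910 in CG, 9.18-fold lower in LAC, and a copy of ATP5J (LOC100344965) had 82 counts in LAC and 679 in CG, 7.10-fold lower. The rows named ATP5F1 and ATP5J differed by -0.13 and 0.31. Copies added to the named rows moved a difference by at most 0.29. The largest shift was that of NDUFB4, whose copy LOC100351933 had 1690 counts in LAC and 1261 in CG, so that the sum differed by -0.40 in place of -0.68. With copies added ATP5J differed by 0.09 and ATP5F1 by -0.26. The row named ATP5I held 1.05 CPM in LAC and 0.97 CPM in CG, while a LOC row described as the same subunit held 31.4 CPM in LAC and 28.1 CPM in CG.

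**Figure D4:**
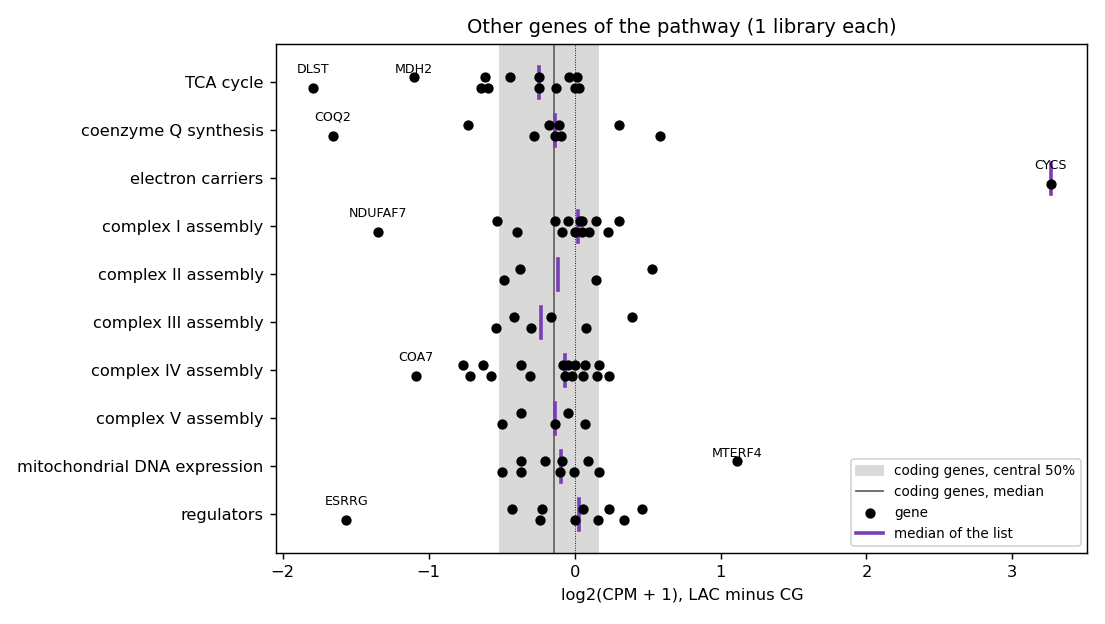
Difference between LAC and CG, 1 library each, on the log2(CPM + 1) scale for each gene of 10 further groups of the pathway. The purple bars are the medians of the groups, and the grey band and line the coding genes. Most points lie in or near the band, with CYCS far to the right at 3.26 and DLST far to the left at -1.79.

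Genes around the chain held 8 genes past the size rule, NDUFAF7 included, and their counts are to be read against the 11% of coding genes that passed downwards and the 1.89% that passed upwards. The TCA cycle, which supplies NADH and succinate, had 13 genes with a median of -0.25, 10 of them below 0, and 2 of the 13 passed the size rule downwards, close to the 11% of coding genes. DLST, a subunit of the 2-oxoglutarate dehydrogenase complex, had 126 CPM in LAC and 438 CPM in CG, 3.48-fold lower in LAC (3.37 to 3.60). MDH2, the malate dehydrogenase of mitochondria, had 50.2 CPM in LAC and 109 CPM in CG, 2.16-fold lower (2.05 to 2.29), and on coding-gene scaling its difference of -0.93 no longer passed the rule. CS, the citrate synthase that opens the cycle, had 273 CPM in LAC and 417 CPM in CG, and did not reach the rule. The cycle summed to 1355 CPM in LAC and 2028 CPM in CG. All 17 oocyte markers were lower in the same library, and their part in these differences was not tested.

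Of the electron carriers, ubiquinone is made by the COQ enzymes, and 1 of 9 measured genes of its synthesis passed the rule downwards, no more than the 11% of coding genes. COQ2, which joins the side chain to the ring, had 11.1 CPM in LAC and 37.3 CPM in CG, 3.35-fold lower in LAC (2.99 to 3.76), and the group had a median of -0.14. CYCS, the gene of cytochrome c, which is the other mobile carrier, had 47.1 CPM in LAC and 4.02 CPM in CG. In this row, named by the RefSeq table, it was 11.7-fold higher in LAC (9.96 to 13.9) and passed the rule upwards. Rows described as the same protein were looked for at the 62 genes only, so any copies of CYCS were not summed. CYCS was the single gene of the electron carriers that was matched, since CYC1, a subunit of complex III, was not.

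The assembly groups held 1 gene past the rule each for complexes I and IV, of 14 and 17 genes, below the 11% of coding genes. For complex I this was NDUFAF7, and the group had a median of 0.02. In the group of complex IV, COA7 had 10.3 CPM in LAC and 22.9 CPM in CG, 2.23-fold lower in LAC (1.97 to 2.53), and the 17 genes had a median of -0.07. COA7 fell short of the rule on coding-gene scaling (-0.92) and with a pseudocount of 5 CPM (-0.87). The groups of complexes II, III and V held 4, 6 and 5 genes, with medians of -0.12, -0.23 and -0.13, and 0 passed the rule. In no assembly group was a gene higher in LAC by the rule.

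Genes that express mitochondrial DNA had 1 of 10 past the rule, MTERF4, a factor needed for the mitochondrial ribosome in mice, with 9.07 CPM in LAC and 3.65 CPM in CG, 2.49-fold higher in LAC (2.04 to 3.06). With a pseudocount of 5 CPM its difference was 0.70, short of the rule that 1.89% of coding genes passed upwards. TFAM, which packs and transcribes mitochondrial DNA, had 37.0 CPM in LAC and 37.1 CPM in CG. Of 10 regulators of mitochondrial genes, ESRRG, an orphan nuclear receptor, had 2.03 CPM in LAC and 7.96 CPM in CG, 3.92-fold lower in LAC (3.01 to 5.16), and the group had a median of 0.03. ESRRG did not pass with the deposited FPKM (-0.85) or with a pseudocount of 5 CPM (-0.88). NRF1, a transcription factor of many subunit genes, had 27.1 CPM in LAC and 24.2 CPM in CG.

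The mitochondrial sequence itself, from which the remaining subunits come, is given as 2 rows without gene names that span nearly the same bases on opposite strands. They held 10070 and 8440 CPM in LAC, against 12845 and 11137 CPM in CG, differences of -0.35 and -0.40. These rows do not separate the subunit genes from the ribosomal and transfer RNAs, so no single mitochondrial subunit was analysed here.

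**Figure D5:**
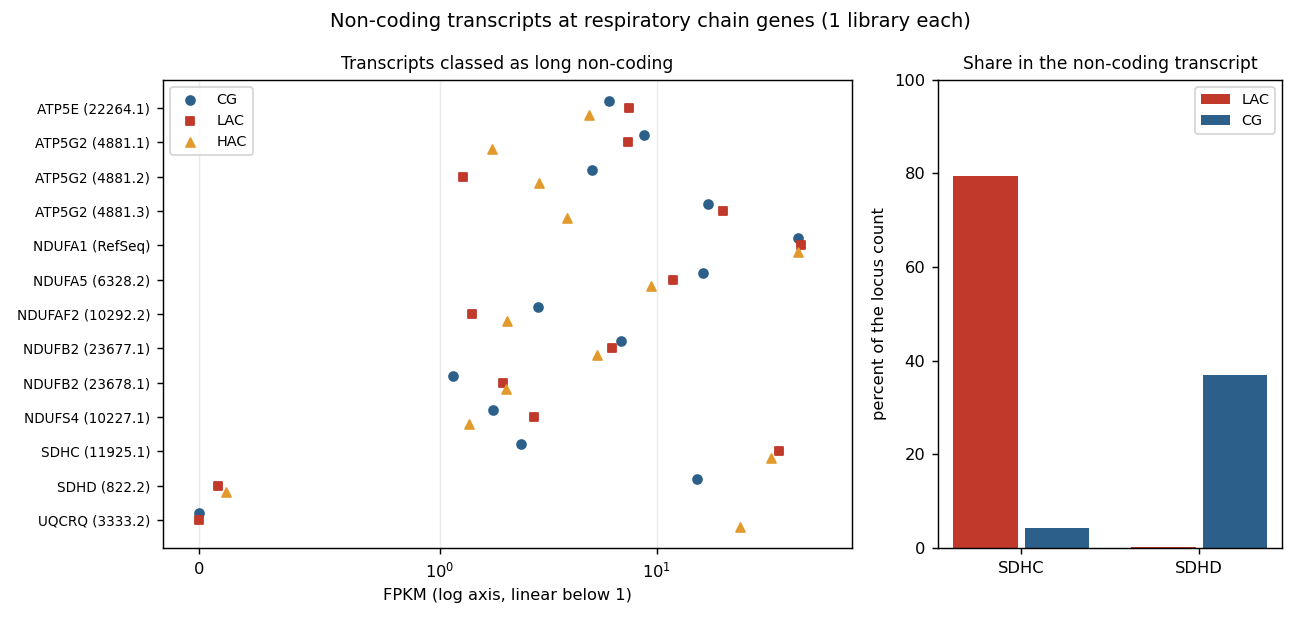
Left, FPKM in CG, LAC and HAC, 1 library each, of the 13 transcripts classed as long non-coding at respiratory chain genes, on a log axis that is linear below 1. Right, share of the locus count that the transcript takes at SDHC and SDHD in LAC and CG. The SDHC transcript is low in CG alone, the SDHD transcript is high in CG alone, and the UQCRQ transcript is above 0 in HAC alone.

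The table of long non-coding transcripts gives values for all 3 libraries, and 13 of its transcripts lie at 10 of the genes. Most are marked as splice forms of the gene that share a junction with its messenger RNA, and the authors' class, not a test here, calls them non-coding. On the log2(FPKM + 1) scale 3 of the 13 differed by at least 1 between LAC and CG, where 13.6% of 10259 transcripts passed upwards and 12.4% downwards. Between HAC and CG 5 differed by this much (10.1% of 9414 upwards and 7.06% downwards in the background), and between HAC and LAC 3 did (16.8% of 10661 upwards and 12.6% downwards). All comparisons with CG share the CG library.

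The transcript at SDHC (MSTRG.11925.1, 3 exons, 2149 bases, minus strand, 31639417 to 31645550 on NC_013681.1, build OryCun2.0) stood at 2.37 FPKM in CG, against 36.9 in LAC and 33.7 in HAC. It made up 79.5% of the count of the SDHC row in LAC and 4.27% in CG. What was left for the other forms of SDHC was 22.9 CPM in LAC and 123 CPM in CG, while the whole row, given above, differed by -0.20. The row as a whole was nearly level, and the split of its reads between transcript forms was not. Such a split is an estimate of the assembly step, which can give shared exons to one form or another, and this was not tested.

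SDHD showed the opposite. Its transcript (MSTRG.822.2, 2 exons, 1112 bases, minus strand, 104272502 to 104279232 on NC_013669.1) stood at 15.4 FPKM in CG, against 0.08 in LAC and 0.11 in HAC. It took 0.22% of the row's count in LAC and 36.9% in CG. The other forms of SDHD were left with 46.5 CPM in LAC and 31.5 CPM in CG, where the row as a whole differed by -0.10. At both membrane anchors of complex II the values of LAC and HAC were close and CG stood apart.

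Most of the other transcripts at these genes did not share this order. HAC was nearer to LAC than to CG for 6 of the 13 transcripts, those at SDHC and SDHD included. A transcript at NDUFB2 (MSTRG.23678.1) did share the order by a small amount, with 1.15 FPKM (CG), 1.95 FPKM (LAC) and 2.01 FPKM (HAC). The UQCRQ transcript (MSTRG.3333.2) was listed at 0 in CG and LAC and had 24.3 FPKM in HAC. At ATP5G2, the form MSTRG.4881.3 stood at 17.2 FPKM (CG), 20.4 FPKM (LAC) and 3.86 FPKM (HAC), and MSTRG.4881.1 at 8.75 FPKM (CG), 7.38 FPKM (LAC) and 1.74 FPKM (HAC), so that HAC stood apart for both. The third form there, MSTRG.4881.2, was lowest in LAC, with 5.04 FPKM (CG), 1.28 FPKM (LAC) and 2.88 FPKM (HAC). At NDUFA1, where the listed form is a RefSeq transcript, the values were 44.8 FPKM (CG), 46.4 FPKM (LAC) and 44.7 FPKM (HAC). This form made up 99.99% of the row's count in LAC and 99.996% in CG. At NDUFAF2 the listed form took 68.5% of the row's count in LAC and 82.1% in CG. The form at NDUFA5 ran to 16.4 FPKM (CG), 11.9 FPKM (LAC) and 9.44 FPKM (HAC) and made up 94.4% of the row's count in LAC and 94.3% in CG, so the row's value is almost wholly that of a form classed as non-coding. A transcript on the other strand of NDUFS4 (MSTRG.10227.1) had 1.75 FPKM (CG), 2.73 FPKM (LAC) and 1.37 FPKM (HAC).

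Across genes, Spearman's rho between the difference and the length of the gene on the genome was -0.35 over the 62 genes with a RefSeq transcript and -0.30 over the 31 rows of complex I, against -0.08 over 12214 coding genes with a mean of at least 1 CPM. With the mean CPM, which is not divided by transcript length, it was -0.22, -0.44 and 0.01. These are descriptions across genes of the same 2 libraries, which share depth and reads, and genes are not independent replicates.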

How the data were processed

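Total RNA depleted of ribosomal RNA was sequenced from 3 libraries. fastp, HISAT2 and the build OryCun2.0 appear in the submitters' processing notes, and no assembler or counter is named in the sources used here. Per the file headers the gene table holds an estimated count and an FPKM value per row, and the long non-coding table holds the authors' coverage, a mean read depth, and their FPKM. Deposited counts equalled coverage times length over 75 within 5% at 97.2% of 8638 loci with 1 transcript in LAC and 96.3% of 8651 in CG, whereas reads have 150 bases, so counting intervals (exact binomial, 95%, counting error only) used halved counts. No count model was used, since there is 1 library per group. Because the sections are stacked in one file, gene counts and FPKM were read from their own section, and 2 of 12 columns of values, the copy of the LAC gene table, were left unused.

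Counts were scaled to CPM with trimmed mean of M values (TMM) factors from their formula, trimming 30% of ratios and 5% of levels. A coding gene is a row whose transcripts include a RefSeq messenger RNA, with at least 10 counts in the higher library. The RefSeq table of assembly mOryCun1.1 gave a symbol to 873 of 14083 LOC rows, of which 27 match the name pattern, 22 with a RefSeq transcript, and none of its coordinates was used. The complexes use 1 row per subunit. A pseudocount of 1 CPM or 1 FPKM understates the change of low genes. CPM is not divided by length, so a level compared between genes depends on transcript length too. This holds for the choice of named genes by mean CPM and for Spearman's rho with the mean CPM. The scaling and size rule were tested on simulated counts with known changes in both directions. The simulation lacks the mainly downward differences of these data and drew each count as a whole read. It therefore cannot decide whether the scaling and the counting intervals hold here. The tools were SciPy 1.17.1, numpy 2.4.6 and pandas 2.3.3 under Python 3.11.15.

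The members, gene lists and named genes were chosen with earlier results of these data known. Named genes are those past the size rule, the SDH genes, listed core subunits and tissue isoforms, and in complexes I, III, IV and V those with the largest differences of at least 10 CPM and the highest mean CPM. Others were named after their values were seen. A gene that the name pattern matches counts in the totals and is not reported here on its own.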

Additional observations from a re-analysis of the deposited data

How the results depend on the processing

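No paired analysis was possible because each group has 1 library, and for the same reason no library could be left out. Scaling on coding genes alone gave medians of 0.10 for all 70 rows, -0.0074 for complex I, 0.035 for complex II, 0.67 for complex III, 0.26 for complex IV and 0.17 for complex V. By its construction it moves all values upwards. With deposited FPKM complex IV had a median of 0.024. With the rows named by the RefSeq table, complex III had a median of -0.092, since this adds 6 subunits, and 2 rows in all and 1 in complex IV passed the size rule upwards. At a difference of 0.5 there were 4 rows higher and 8 lower in all, 1 higher and 3 lower in complex I, and 1 higher in complex III. With a pseudocount of 0.1 CPM 2 rows were lower, the second being the assembled fragment of ATP5G1, and with subunits only 0. Adding the assembled rows to the complexes, an alternative chosen after seeing the data, left complexes I and V apart by -0.12. Of 42 named genes 12 changed sign under some scaling, each with a difference of at most 0.14, and none of the 8 past the size rule did. Of these 8, MDH2 (-0.93) and COA7 (-0.92) lost the call on coding-gene scaling, ESRRG (-0.85) with deposited FPKM, and COA7 (-0.87), ESRRG (-0.88) and MTERF4 (0.70) with a pseudocount of 5 CPM, and the other 4 kept it under each scaling and pseudocount tried. The other medians stayed within an interval taken from the ranked values of the genes in their set, and the other counts within 1.5 times. For complexes II and IV, with 3 rows each, that interval is the whole range, and for complex III it is the counting interval of its 1 row. Such an interval describes the spread among genes, which are not replicates, and does not measure counting error. Depth limits the genes with few counts, such as NDUFA13, COX7A1 and COX4I2.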
